A study of Mus musculus with 31 samples.

Results

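The genes described here are the voltage-gated and potassium ion channel genes measured on 31 Affymetrix mouse expression arrays. They were taken by name: every probe set whose single annotated symbol began with Kcn, Cacn or Hcn, or with Scn and a digit, was a member. This gave 254 probe sets of the 45101 on the array, for 121 genes of the 18194 with a probe set of 1 symbol. For each gene the brightest probe set by mean over the 31 arrays was used; 49 genes had 1 probe set and 72 had more, up to 6. The symbols included 3 noncoding RNAs (Kcnq1ot1, Kcnmb4os1 and Kcnmb4os2).

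The study profiled CD4 T cells sorted from spleens and lymph nodes of reporter mice, to compare natural with induced regulatory T cells (Treg) and cells with a working Foxp3 with cells carrying a mutant reporter allele. All cells carried EGFP in the Foxp3 locus, either beside a working Foxp3 (bicistronic Foxp3/EGFP mice) or with the Foxp3deltaEGFP mutant allele, so no group was free of the reporter. From Foxp3/EGFP mice came the groups called natural Treg (4 arrays, EGFP+, not activated), conventional T (3 arrays, EGFP-, not activated), activated T (4 arrays, EGFP- cells given anti-CD3 and anti-CD28 without TGF-beta) and activated natural Treg (3 arrays, EGFP+ cells given both antibodies and TGF-beta). The induced Treg (5 arrays) were EGFP- cells that turned EGFP+ after 3 days of both antibodies and TGF-beta. Cells of those cultures that stayed EGFP- formed the failed induced Treg (3 arrays). The induced Foxp3-delta group (3 arrays) was made in the same way from EGFP- cells of mutant mice, the labels naming mutant males as the source of such cells. The natural Foxp3-delta group (2 arrays) held unactivated EGFP+ cells of heterozygous females. The last groups, with 2 arrays each, were induced Treg with IL-2 and induced Foxp3-delta with IL-2: sorted induced cells that spent 1 more week in culture with interleukin 2 (100 units per ml). The labels did not give the age of the mice, or say that the arrays of a group came from separate animals or cultures, so a p-value here measures the spread between these arrays alone, and that spread may be technical.

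The values went against the labels, so each group is written of below as arrays labelled with a cell type. Foxp3, the transcription factor that defines Treg, read 12.7 ± 1.68 (SD, n = 31) and ran from 9.59 to 16.9, over the range of the background. Percentiles here and below are ranks of a probe set among all 45101 on an array, averaged over the 31 arrays. Of 11 T cell genes listed, 9 had a probe set of their own, and their median lay at percentile 26.2. Cd3e read 38.6 ± 13.3 and Cd4 20.4 ± 4.80 (SD, n = 31). Thy1, which neurons also carry, was the exception at the 99.1st percentile. The 7 neuron genes had their median at percentile 99.3, the 5 astrocyte genes at 99.2, the 5 microglia genes at 82.8 and the 4 muscle genes at 39.2. The myelin gene Mbp read 20081 ± 1296 and the neurofilament gene Nefl 12518 ± 970 (SD, n = 31). The arrays were alike, with correlations between 0.980 and 0.996 over the genes tested. By their hybridisation controls and intensity ranges they fell into 3 sets of 15, 8 and 8 arrays, which the label groups shared unequally: the deposited median ran from 37.0 to 47.7 in set 1, from 34.7 to 55.4 in set 2 and from 22.2 to 37.4 in set 3. The labels name no such sets; they were defined here from the control spots and each array's median and 99th percentile.

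Voltage-gated channels open when the membrane depolarises. Sodium channels start the action potential, potassium channels end it and set the resting potential, and calcium channels couple it to transmitter release and gene expression; auxiliary subunits carry the pores to the membrane and set how fast they open and close. In myelinated axons, sodium channels and Kcnq channels gather at the nodes of Ranvier, while Kv1 channels lie beside the node under the myelin. T cells use a small set instead: Kv1.3, encoded by Kcna3, and the calcium-activated channel KCa3.1, encoded by Kcnn4, keep the membrane negative and so sustain calcium entry through Orai1.

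The 250 bases before the annotated start are shown for 4 channel genes, as a pair of neuronal channels (Kcna2, a Kv1 subunit of the juxtaparanode, and Kcnc1, a Kv3 subunit of fast-spiking neurons) and the pair of T cell channels, each pair lying on the same chromosomes as the other. They are from RefSeq on GRCm38.p6, plus strand, at chr3:107101317-107101566 for Kcna2, chr3:107035912-107036161 for Kcna3, chr7:46396218-46396467 for Kcnc1 and chr7:24370013-24370262 for Kcnn4. Capitals mark each CpG.
Kcna2: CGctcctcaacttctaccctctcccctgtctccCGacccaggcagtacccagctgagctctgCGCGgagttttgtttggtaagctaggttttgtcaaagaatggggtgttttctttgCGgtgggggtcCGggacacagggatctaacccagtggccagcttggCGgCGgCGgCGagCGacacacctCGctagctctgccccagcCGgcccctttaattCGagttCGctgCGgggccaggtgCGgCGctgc
Kcna3: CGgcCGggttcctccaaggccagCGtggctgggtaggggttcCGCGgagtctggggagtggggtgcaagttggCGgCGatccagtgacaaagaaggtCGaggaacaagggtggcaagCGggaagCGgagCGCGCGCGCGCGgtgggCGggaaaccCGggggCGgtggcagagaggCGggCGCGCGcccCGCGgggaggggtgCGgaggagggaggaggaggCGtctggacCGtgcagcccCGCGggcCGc
Kcnc1: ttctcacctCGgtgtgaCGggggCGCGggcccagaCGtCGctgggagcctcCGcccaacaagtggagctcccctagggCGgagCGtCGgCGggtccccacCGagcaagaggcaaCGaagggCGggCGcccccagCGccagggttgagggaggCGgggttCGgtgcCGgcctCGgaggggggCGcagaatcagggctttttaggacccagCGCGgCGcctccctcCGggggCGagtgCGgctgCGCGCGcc
Kcnn4: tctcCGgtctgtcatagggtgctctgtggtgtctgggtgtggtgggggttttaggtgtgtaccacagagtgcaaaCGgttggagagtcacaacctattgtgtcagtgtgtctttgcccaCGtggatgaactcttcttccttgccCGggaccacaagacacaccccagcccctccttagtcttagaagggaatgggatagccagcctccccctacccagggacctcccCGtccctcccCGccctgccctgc
The window held 18 CpGs in Kcna2, 31 in Kcna3, 30 in Kcnc1 and 6 in Kcnn4, which is an observed to expected ratio of 0.74, 1.02, 0.88 and 0.28.

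Of the 121 channel genes, 92 had a promoter entry. The median ratio of observed to expected CpG was 0.75 over the 15 of them that lay above the 90th percentile of intensity, 0.43 over the 48 between the 50th and the 90th, and 0.40 over the 29 below the 50th. Over all 14453 named genes with an entry it was 0.63, with 0.77 above the 90th percentile and 0.31 below the 50th. The string TATAAA, searched on both strands, was present in 3 of the 92 windows (3.26%) and in 9.02% of all. The centre of the NRF1 motif (GCGCA, any base, then GCGC) was in 0 of the 92 and in 6.37% of all. Of the strings GGACAGC and CAGCACC, parts of the RE1 element that the repressor REST binds in neuronal genes, the first was in 9 windows (9.78%, against 6.03% of all) and the second in 4 (4.35%, against 6.07%). None of the 4 strings was found in the 4 windows printed above. These are matches of letters in a short window and say nothing about what bound there.

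Channel genes as a class were neither bright nor dim on these arrays. Intensities below are after quantile normalisation, and background is each array's 95th percentile of 27 bacterial control probe sets that had no spike, which ran from 10.5 to 14.9. Of the 121 genes, 99 were above it on all 31 arrays (81.8%, against 74.9% of all named genes), 19 on some arrays and 3 on none: Kcne2, Kcne3 and Kcnj2. The median channel gene stood at percentile 64.3 and the median named gene at 65.1, and 17 channel genes (14.0%) were above the 90th percentile, against 15.7% of all. A percentile says where a probe set's brightness lay on the array; probe sets differ in how well they bind, so it is a description and not an amount of mRNA. In bulk RNA, fewer cells of a type and less RNA per cell cannot be told apart.

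**Figure D1:**
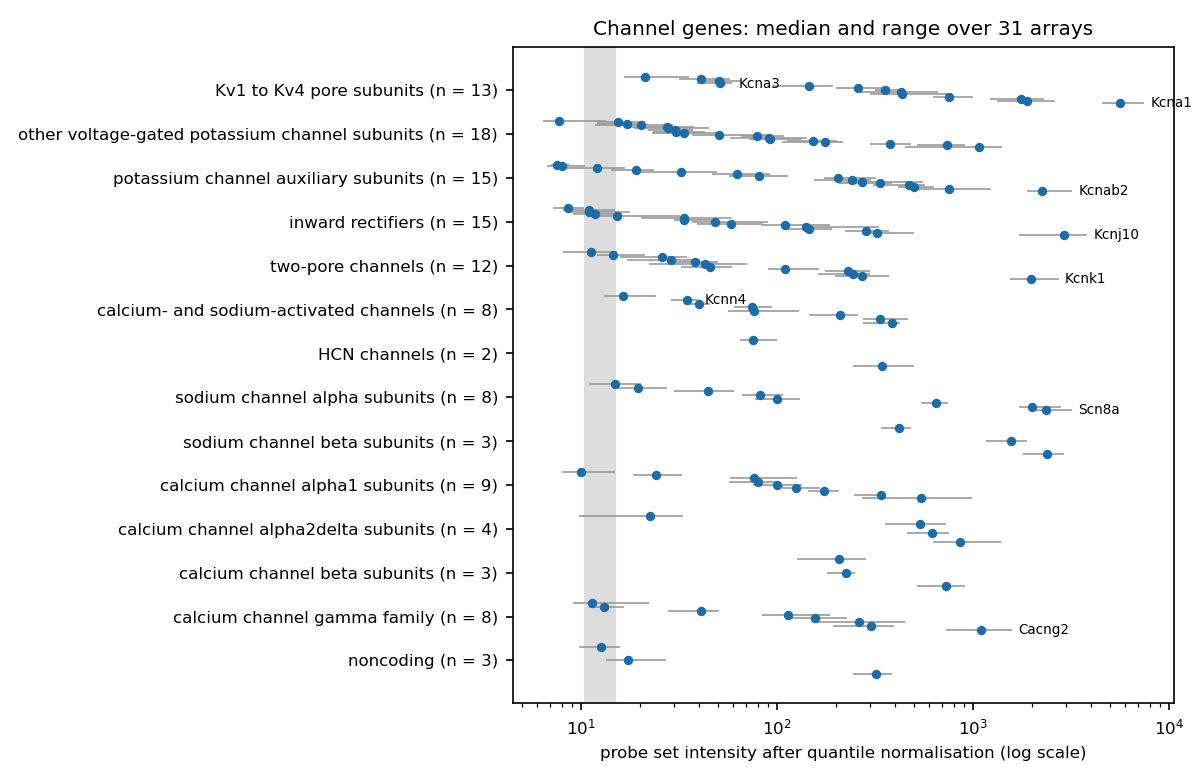
Intensity of the 121 channel genes (log scale), by family. Points are medians over 31 arrays, lines run from the lowest to the highest array, and the grey band is the range of background over the arrays, 10.5 to 14.9. Each family had a member below the 50th percentile except the small sodium channel beta, calcium channel beta and HCN families. The HCN, calcium channel alpha1, calcium- and sodium-activated and noncoding families had none above the 90th. Kcna1, with a median of 5662, was the brightest.

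Among the Kv1 to Kv4 pore subunits, which form the classical voltage-gated potassium channels, all 13 were above background on all 31 arrays, and the family median lay at percentile 82.5. Kcna1, the Kv1.1 subunit of the juxtaparanode, had 4548 on its lowest array, a median of 5662 and 7486 on its highest. Its partner Kcna2 ran from 1330 over 1897 to 2633, and Kcnc1 from 1232 over 1757 to 2305. Kcnd2, the Kv4.2 subunit of the dendritic A-type current, ran from 625 over 761 to 999. At the other end, Kcna7 had a median of 21.3 and ran from 16.6 to 35.8. For Kcna1, Kcna2 and Kcnc1 the lowest array was thus still far above the background of at most 14.9.

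The other voltage-gated potassium subunits (Kcnf, Kcng, Kcnh, Kcnq, Kcns and Kcnv) had their median at percentile 51.1, with 14 of 18 above background on all arrays. Kcnq3, a subunit of the M-current channel, read 1104 ± 184 (SD, n = 31). It was lowest, at 453, on the array labelled natural Foxp3-delta 2, and ran from 798 to 1417 on the other 30. Kcnh2 (the ERG channel) read 750 ± 88.5, Kcng4 385 ± 39.8 and Kcnh1 173 ± 28.3, and the silent subunit Kcnv2 8.06 ± 1.31, above background on 1 array (SD, n = 31).

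The auxiliary potassium channel subunits had their median at percentile 75.2. Kcnab2, the cytoplasmic beta subunit that escorts Kv1 channels to the axon, ran from 1901 over 2270 to 3214, and Kcnab1 from 518 over 760 to 1241. The calcium-binding KChIP proteins, auxiliary subunits of Kv4 channels, were all measured: Kcnip4 read 503 ± 57.6, Kcnip1 467 ± 65.6, Kcnip3 306 ± 78.9 and Kcnip2 216 ± 37.0 (SD, n = 31). The single-pass Kcne subunits were dim, with Kcne3 at 7.71 ± 0.395 and Kcne2 at 8.26 ± 1.03, both below background on every array; Kcne1l was above it on all 31, at 81.4 ± 13.4.

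Among the 15 inward rectifiers, Kcnj10 (Kir4.1, the channel with which astrocytes take up potassium) ran from 1717 over 2912 to 3854. The next by intensity were Kcnj3, a subunit of the G-protein-gated channel, at 338 ± 41.6 and Kcnj16, which pairs with Kcnj10, at 301 ± 46.1 (SD, n = 31). Kcnj8, a channel of mural cells, read 113 ± 23.2, and Kcnj2 8.70 ± 0.733. Of the 12 tandem-pore leak channels, Kcnk1 ran from 1544 over 1997 to 2747, while Kcnk13, Kcnk2 and Kcnk3 had medians of 273, 246 and 231. Kcnk15 was above background on 11 of the 31 arrays, with a median of 11.3.

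The calcium- and sodium-activated potassium channels were led by Kcnma1 (the BK channel, median 387) and the sodium-activated Kcnt1 (339). The SK channel genes Kcnn2, Kcnn1 and Kcnn3 had medians of 211, 75.0 and 16.4. Hcn2 and Hcn3, subunits of the pacemaker channels opened by hyperpolarisation, had medians of 347 and 75.9.

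Sodium channel genes covered a wide range of intensity. Scn8a (Nav1.6, the main channel of mature nodes) ran from 2017 over 2377 to 3204, Scn1a from 1720 over 2010 to 2841 and Scn2a from 543 over 652 to 751. Scn7a, a sodium-sensing relative found in glia, had a median of 101, and Scn3a 81.9. The sensory neuron channels Scn9a and Scn10a had medians of 19.7 and 15.0, close to background, and Scn11a 44.6. The beta subunits, single-pass proteins that anchor the pore, were bright throughout: Scn4b ran from 1817 over 2402 to 2910, Scn2b from 1174 over 1576 to 1901 and Scn3b from 341 over 421 to 484.

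Of the calcium channel alpha2delta subunits, which bring channels to the presynaptic membrane, Cacna2d3 read 871 ± 143, Cacna2d1 620 ± 72.6 and Cacna2d2 546 ± 104 (SD, n = 31). Among the pores, Cacna1e (R-type) read 578 ± 148, Cacna1b (N-type) 326 ± 27.3, and the T-type genes Cacna1g and Cacna1h 174 ± 17.1 and 133 ± 18.3. The skeletal muscle pore Cacna1s read 10.4 ± 1.6 and was above background on 4 of the 31 arrays. Cacnb4 led the beta subunits at 725 ± 74.3, with Cacnb2 at 223 ± 16.3 and Cacnb1 at 208 ± 38.3. In the gamma family, Cacng2 (stargazin), which carries AMPA receptors to synapses, read 1110 ± 215, Cacng7 296 ± 48.9, and the muscle subunit Cacng1 12.2 ± 2.73.

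The members were also listed by the tissue in which they are known to act, and the positions below describe brightness only. Of 10 nodal and juxtaparanodal channel genes of myelinated axons listed, 8 were measured here (Kcna1, Kcna2, Kcnab2, Kcnq3, Scn8a, Scn1a, Scn2b and Scn4b), and all lay between percentiles 93.5 and 99.2. The 3 fast-spiking channel genes measured of 4 listed (Kcnc1, Kcnc2, Kcnc4) lay between 82.5 and 96.0. The 3 glial channel genes Kcnj10, Kcnk1 and Kcnj16 lay at 97.6, 96.6 and 79.9. Channel genes of heart and skeletal muscle, of which 5 of 7 were measured (Cacna1s, Kcnj12, Kcne1, Kcnq1, Cacng1), lay between 13.6 and 47.3, and the 3 sensory neuron channel genes between 27.2 and 51.9. The first 3 lists overlapped one another in range, and so did the last pair.

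The T cell channels were above background on all 31 arrays and unremarkable among the others. Kcna3 ran from 39.5 over 51.7 to 59.3 (percentile 54.1), and Kcnn4 from 28.8 over 34.9 to 39.8 (percentile 47.5). By group, Kcna3 read 54.9, 54.4, 52.8, 45.7 and 49.6 on the arrays labelled induced Treg, 55.5, 50.4, 49.9 and 51.7 on natural Treg, 54.5, 55.4 and 51.8 on conventional T, and 57.1, 48.1, 39.5 and 58.0 on activated T. These groups overlapped. The difference of natural Treg from conventional T arrays was -0.04 on the log2 scale (95% interval -0.22 to 0.14), and that of activated T from conventional T arrays -0.08 (-0.26 to 0.10), with adjusted p = 1.0 and 0.624 by limma. Kcnn4 lay under the filter on low values and was not tested. Orai1, the pore of the calcium channel that they sustain, read 173 ± 19.4 (SD, n = 31).

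**Figure D2:**
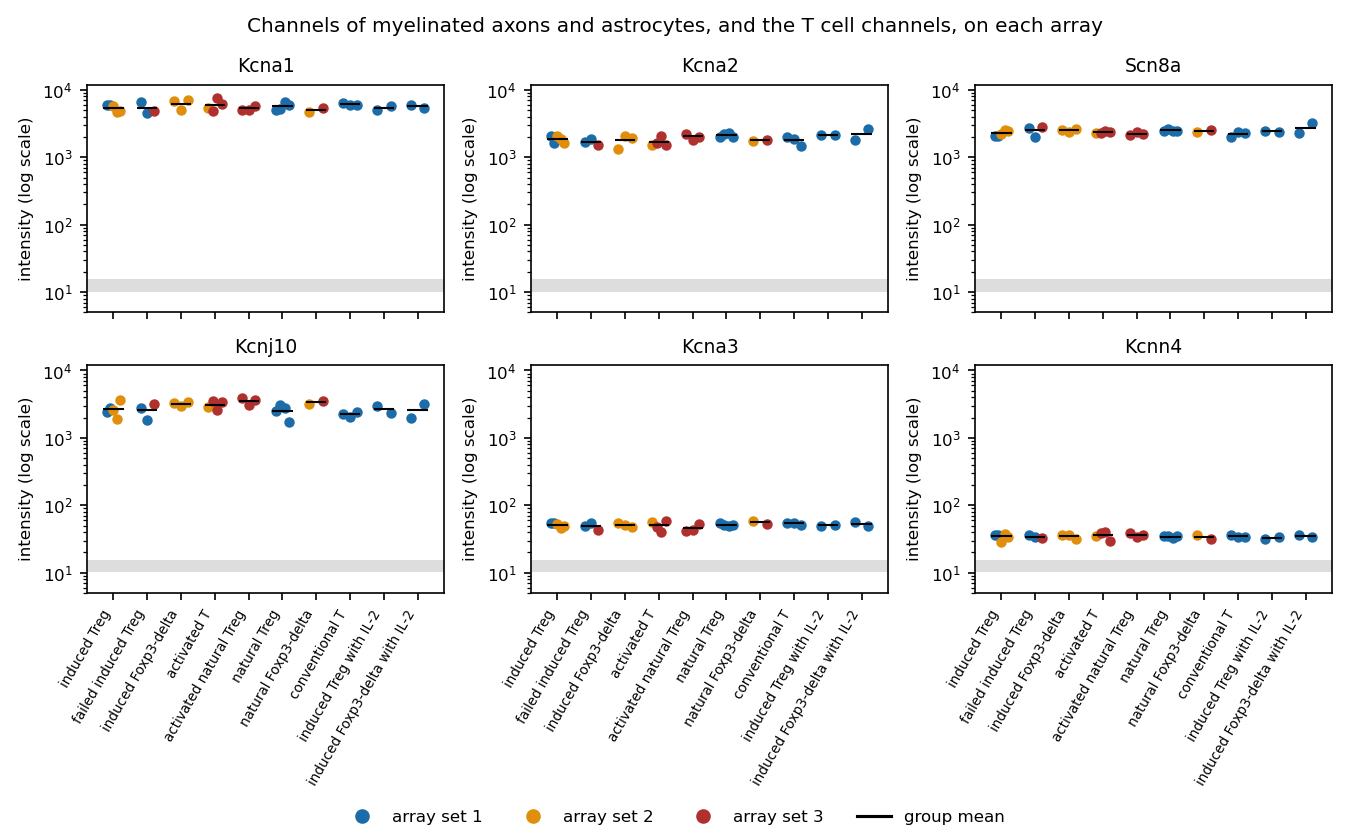
Intensity (log scale) of 4 bright neural and glial channel genes and the T cell channel genes Kcna3 and Kcnn4 on each of the 31 arrays, by label group. Points are arrays coloured by array set, black lines are group means and the grey band is the background range. Kcna1 is at or above 4548 and Kcna3 at or below 59.3 on every array, with no label group standing out in either.

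Partner genes were described from lists of proteins that bind or work beside the channels. The 10 sodium channel partners had their median at percentile 93.2, among them Ank3 (ankyrin G, the scaffold of the node and axon initial segment) at 4330 ± 838 (SD, n = 31). The 10 potassium channel partners had theirs at 89.3, the 8 measured ion pumps of 11 at 95.8, the 13 measured other channels of 14 at 79.0 and the 6 measured calcium channel partners of 8 at 56.4.

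Differences between label groups were tested for 91 of the 121 channel genes, those whose probe set lay above the table median of 39.82 on at least 2 arrays; 75.2% of channel genes passed, against 66.9% of named genes. Over all 10 groups, limma's moderated F test called 8 channel genes at an adjusted p under 0.05, which is 8.79% of the 91. Of all 12170 genes tested, 13.6% were called, so the share among channel genes was below the background. The count of 8 was 24 with array medians and 40 without scaling, and ran from 3 (without conventional T 2 or induced Treg with IL-2 1) to 13 (without natural Foxp3-delta 1) when 1 array was left out. At an unadjusted p under 0.05 the shares were 17.6% and 31.2%. The share of variance that label groups took was 36.0% in the median channel gene and 41.1% in the median gene tested; for the 3 array sets the shares were 12.1% and 22.9%.

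The 8 were Kcnip2 (adjusted p = 0.00354), Cacng7 (0.00415), Kcnmb4 (0.0183), Kcnq5 (0.0228), Kcne1l (0.0276), Scn3a (0.0358), Cacna1e (0.0379) and Kcnd1 (0.0454) by limma's F test. With the array set as a block their adjusted p rose to 0.0583, 0.0743, 0.121, 0.167, 0.172, 0.248, 0.678 and 0.487, so none was called. In Cacna1e the array set alone took 62.5% of the variance. Within the label induced Treg, Cacna1e read 430 and 546 on the arrays of set 1 and 720, 884 and 621 on those of set 2. The part of the array set in these calls was not tested further, and for several groups the set and the label cannot be told apart.

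The 2 arrays labelled induced Treg with IL-2 were compared with the 5 labelled induced Treg. Kcnip2 and Scn3a rose, and no channel gene fell. These are 2 of 91 channel genes (2.2%), and 2.15% of all genes were called, 1.01% higher and 1.14% lower. Scaling to array medians gave 2 higher and 3 lower, and no scaling gave 0. Kcnip2 read 254 and 322 on the arrays labelled with IL-2 and 222, 176, 219, 180 and 195 on those labelled induced Treg. The groups did not overlap, and the log2 difference was 0.50 (SE 0.11, 95% interval 0.28 to 0.72, limma adjusted p = 0.0161). Arrays labelled induced Foxp3-delta with IL-2 were on neither side of this comparison, though they shared its fit and its estimate of spread. They read 267 and 319, against 191, 203 and 212 on the induced Foxp3-delta arrays. These groups did not overlap either. The former all lay in array set 1 and the latter all in set 2, so label and set cannot be told apart there. The 4 arrays labelled with interleukin 2 included the 3 highest of all 31, while 1 activated natural Treg array at 261 lay above the lowest of them.

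Scn3a, a sodium channel pore best known from the developing brain, read 100 and 97.8 on the arrays labelled induced Treg with IL-2 and 77.6, 68.1, 67.0, 74.2 and 72.1 on those labelled induced Treg, a log2 difference of 0.39 (SE 0.10, interval 0.18 to 0.60, limma adjusted p = 0.0388). The groups did not overlap. The arrays labelled induced Foxp3-delta overlapped, with 67.4 and 86.9 where the label gave IL-2 and 72.8, 66.5 and 81.9 where it did not; whether the differences themselves differed by labelled allele was not tested. The conventional T arrays read 96.1, 101 and 95.4, close to the 2 labelled induced Treg with IL-2. Within array set 1 alone, with 2 arrays on each side, the differences were 0.50 for Kcnip2 and 0.37 for Scn3a; with the set as a block they were 0.47 and 0.43, with adjusted p = 0.0677 and 0.0641. Leaving out the second array with IL-2, which leaves 1 array assumed to vary like the other groups, brought the Kcnip2 difference to 0.33 and ended the call. The call of Scn3a was kept without induced Treg 1 and ended without any 1 of the other 6 arrays, at differences of 0.37 to 0.40. Another probe set of Kcnip2, with a mean of 43.9, differed by -0.06. The remaining probe sets of both genes lay at background and could not show a difference. The largest difference by size was that of Cacna1e, a log2 difference of -0.79 (SE 0.22, limma adjusted p = 0.053) that missed the threshold. It read 274 and 450 on the arrays labelled with IL-2 and 430, 546, 720, 884 and 621 on those labelled induced Treg, so the groups overlapped. Both arrays with IL-2 lay in set 1, where the induced Treg arrays read 430 and 546. Of the 9 potassium channel partners tested, 1 was called: Lgi1, a secreted protein bound to Kv1 complexes, fell (log2 difference -0.57, SE 0.15, limma adjusted p = 0.0417). Of 5 microglia genes tested, 1 was called: Cx3cr1 fell by 0.41 (SE 0.11, limma adjusted p = 0.0412), while the median difference of the 5 was 0.00.

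**Figure D3:**
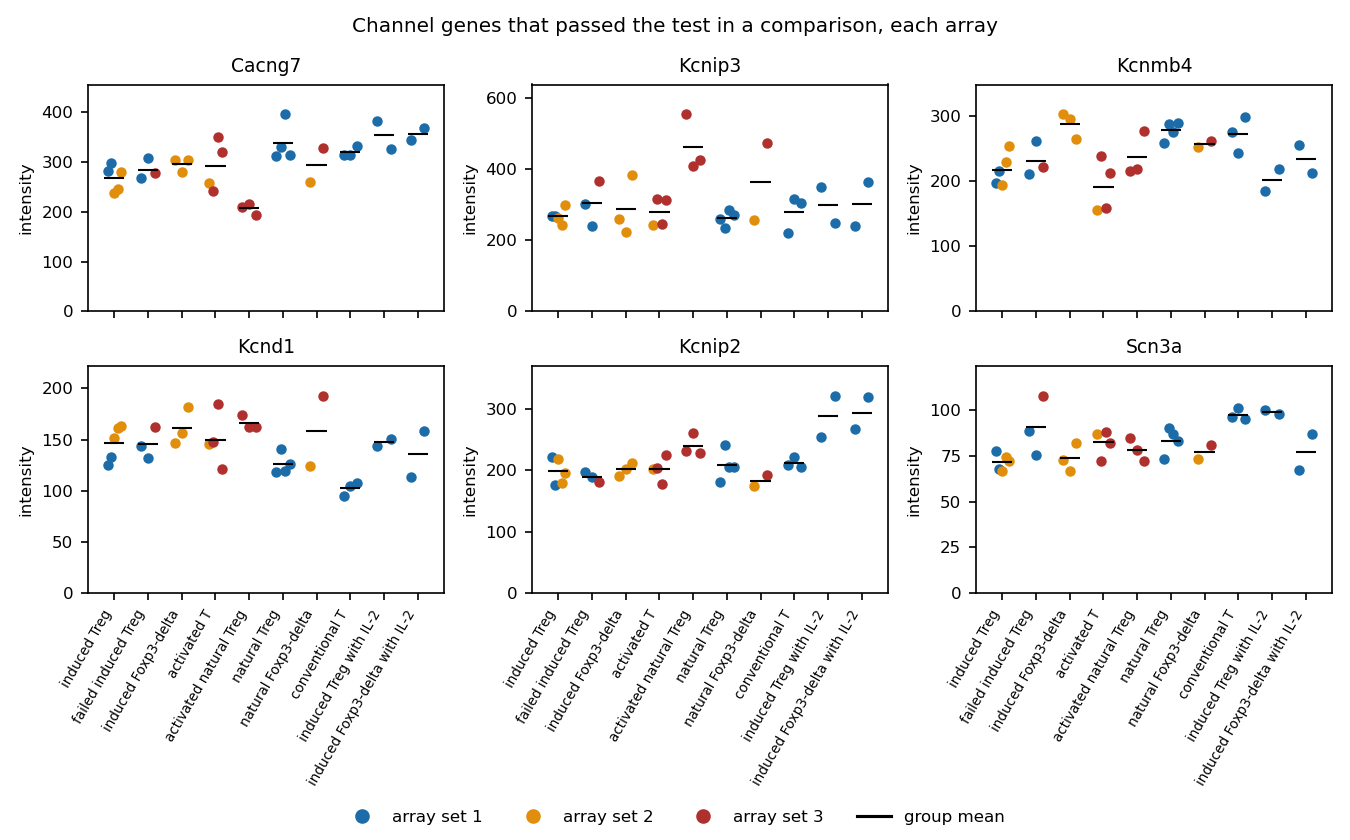
Intensity of 6 channel genes that passed the test in a comparison, on each of the 31 arrays by label group. Points are arrays coloured by array set, black lines are group means and each axis starts at 0. Kcnip2 is high in both groups labelled with IL-2 (254 to 322), Cacng7 is lowest in activated natural Treg (193 to 216), and Kcnd1 is lowest in conventional T (94.7 to 108).

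The largest number of called channel genes was found between arrays labelled activated natural Treg and natural Treg, where Kcnip3, Cacng2 and Kcnab2 rose and Cacng7 and Kcnj14 fell. These 5 are 5.49% of the 91 tested, against 16.7% of all genes, of which 8.68% were higher and 8.04% lower. The split of 3 higher and 2 lower depended on scaling, with 11 higher and 3 lower after scaling to array medians and 58 lower of 58 without scaling. All 3 activated natural Treg arrays lay in array set 3 and all 4 natural Treg arrays in set 1, so the comparison could not be made within a set. The 3′ to 5′ ratio of actin, which is higher where RNA is more degraded, was 2.05, 2.08 and 2.13 on the activated natural Treg arrays and 1.84, 1.81, 1.73 and 1.79 on the natural Treg arrays, with no overlap; its part in the calls was not tested.

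Cacng7, a gamma family member that modulates AMPA receptors, read 210, 216 and 193 on activated natural Treg arrays and 312, 329, 395 and 313 on natural Treg arrays. The activated arrays were the 3 lowest of all 31, and the log2 difference was -0.66 (SE 0.11, interval -0.88 to -0.44, limma adjusted p = 0.000776). With the set as a block the difference was -0.67, with adjusted p = 0.0791. Kcnip3, also known as the calcium-dependent repressor DREAM, read 556, 409 and 427 against 260, 236, 285 and 273. These groups did not overlap, and the log2 difference was 0.77 (SE 0.19, interval 0.38 to 1.17, limma adjusted p = 0.00976). Of the other arrays in set 3, natural Foxp3-delta 2 read 475, failed induced Treg 3 read 368 and activated T 2, 3 and 4 read 316, 247 and 314. Of these, 247 lay within the range of the natural Treg arrays. With the set as a block the Kcnip3 difference was 0.32 (adjusted p = 0.696).

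Cacng2 read 1460, 1476 and 967 on the activated arrays and 729, 961, 778 and 855 on the others, so the groups were separated by a small gap; the log2 difference was 0.62 (SE 0.16, limma adjusted p = 0.0104), and 0.10 with the set as a block. Kcnab2 read 3214, 2497 and 2532 against 1957, 2398, 2140 and 1945, a log2 difference of 0.37 (SE 0.10, limma adjusted p = 0.0143) that was 0.17 with the block. For Kcnj14 (Kir2.4, an inward rectifier of motor neurons) the values were 125, 121 and 110 against 165, 156, 130 and 174. Its log2 difference was -0.35 (SE 0.12, limma adjusted p = 0.0394), and -0.58 with the block (adjusted p = 0.171). Leaving out the first activated array ended the calls of Kcnip3, Cacng2, Kcnab2 and Kcnj14 and brought the count of called channel genes to 2, Cacng7 (-0.67) and Kcnh2, which was not called with all arrays (-0.42, adjusted p = 0.0489). The call of Cacng2 was also lost without the second. The call of Kcnj14 was kept without natural Treg 3 and lost without any 1 of the other 6 arrays, at differences of -0.38 to -0.30.

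**Figure D4:**
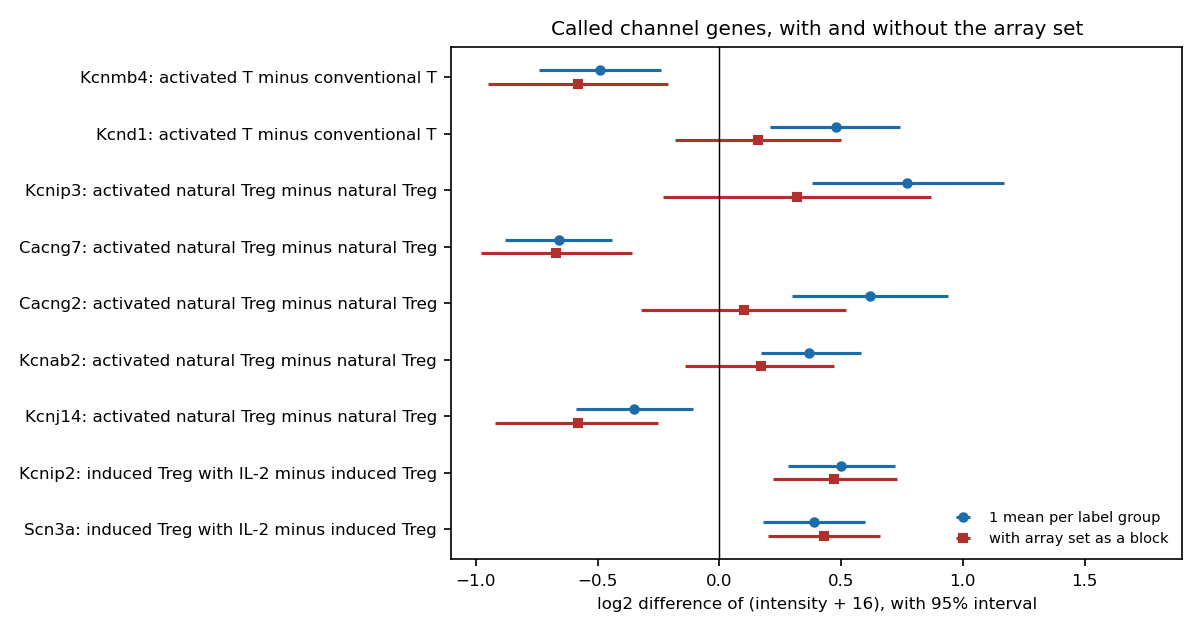
Log2 differences of the 9 called pairs of channel gene and comparison, with 95% intervals. Blue circles are the fit with 1 mean per label group and red squares the fit with array set as a block. Those of Cacng7, Kcnip2, Scn3a, Kcnmb4 and Kcnj14 keep or gain size in the second fit (Cacng7 -0.66 and -0.67), while those of Cacng2 (0.62 and 0.10), Kcnip3, Kcnab2 and Kcnd1 shrink.

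Probe sets of the same gene went different ways in this comparison. The other probe set of Cacng7, with a mean of 132, differed by 0.27 where the chosen one differed by -0.66. It read 104, 192 and 193 on activated natural Treg arrays and 113, 136, 134 and 132 on natural Treg arrays. These groups overlapped, as the first activated array was the lowest. For Cacng2 a probe set with a mean of 654 differed by -0.45, against 0.62 for the chosen one and 0.27 for the third. The other probe set of Kcnip3 differed by -0.04, and that of Kcnab2 by 0.28, in the direction of the chosen one. The direction of the chosen probe set was thus shared by 2 of 3 probe sets of Cacng2 and by no other probe set of Cacng7 or Kcnip3. Over the 53 channel genes with more than 1 probe set above background on all arrays, 3 (5.66%: Cacng2, Cacng7 and Kcnc1) had probe sets past 0.25 in opposite directions, against 7.47% of the 6584 named genes of that kind. In the comparison with interleukin 2 there were 3 as well (5.66%: Kcna6, Kcnc1 and Scn8a, named after their values were seen), against 3.1% of all.

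**Figure D5:**
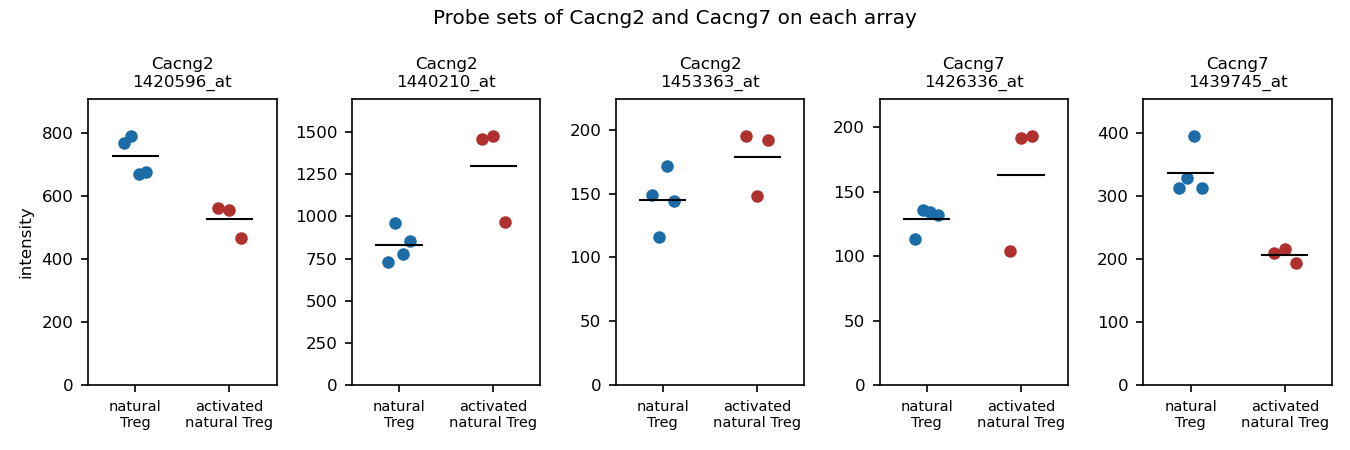
Intensity of each probe set of Cacng2 and Cacng7 on the 4 arrays labelled natural Treg (blue, all array set 1) and the 3 labelled activated natural Treg (red, all array set 3). Black lines are group means and each axis starts at 0. The chosen probe sets (the second panel for Cacng2, the last for Cacng7) rise by 0.62 and fall by 0.66 on the log2 scale. The mean of another probe set of each gene moves the other way, with groups that overlap for Cacng7.

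In the same comparison, 1 of 12 tested genes among other cation and anion channels was called, Orai1, which fell by 0.49 (SE 0.09, limma adjusted p = 0.00131). Of the 10 sodium channel partners, Fgf13 rose by 0.42 (SE 0.11, adjusted p = 0.015) and the nodal spectrin gene Sptbn4 fell by 0.72 (SE 0.16, adjusted p = 0.00443). Of 9 tested potassium channel partners, the scaffold gene Dlg4 fell by 0.90 (SE 0.20, adjusted p = 0.00477). Among the cell type markers, 1 of 2 T cell genes tested was called, Cd3e, which rose by 0.59 (SE 0.16, limma adjusted p = 0.0136). Of 7 neuron genes tested, 1 was called: Cplx1 fell by 0.40 (SE 0.12, limma adjusted p = 0.0213), while the median difference of the 7 was -0.14. The part of these genes in the channel results was not tested.

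Arrays labelled activated T differed from conventional T arrays in 2 channel genes, 2.2% of those tested, against 6.75% of all genes (3.38% higher and 3.38% lower). With array medians in place of quantile normalisation 20 were higher and 1 lower, and without scaling 9 of 9 were lower. Kcnmb4, the neuronal beta subunit of the BK channel, fell: it read 156, 239, 159 and 212 on activated T arrays and 276, 243 and 298 on conventional T arrays. The groups were separated by a gap of 239 to 243, and the log2 difference was -0.49 (SE 0.12, interval -0.74 to -0.24, limma adjusted p = 0.0201). Kcnd1 (Kv4.1) rose, from 94.7, 105 and 108 to 146, 148, 185 and 121, a log2 difference of 0.48 (SE 0.13, interval 0.21 to 0.74, limma adjusted p = 0.0272). The 3 conventional T arrays were the lowest of all 31 in Kcnd1. With the set as a block the differences were -0.58 and 0.16, with adjusted p = 0.261 and 0.816. Other probe sets of Kcnd1 differed by -0.06 and -0.02, and on the deposited scale without normalisation the Kcnd1 difference was -0.04. On that scale the median of all genes fell further than this. The Kcnmb4 call was lost without activated T 3 (-0.42), conventional T 1 (-0.48) or conventional T 3 (-0.43), and that of Kcnd1 without activated T 2 or 3 or any conventional T array (0.38 to 0.51). Kcnmb4 had 1 probe set. Of 10 sodium channel partners tested, 1 was called: Fgf13 rose by 0.47 (SE 0.11, limma adjusted p = 0.0183). Of 9 potassium channel partners, Dlg4 alone was called and fell by 0.68 (SE 0.20, limma adjusted p = 0.0392). Of 4 calcium channel partners, the presynaptic scaffold gene Rims1 alone was called and fell by 0.53 (SE 0.15, limma adjusted p = 0.0401). Among cell type markers, 1 of 2 T cell genes tested was called, Cd3e, which rose by 0.81 (SE 0.16, limma adjusted p = 0.00589). Of 7 neuron genes, 1 was called: Rbfox3 fell by 0.70 (SE 0.20, limma adjusted p = 0.0373), while the median difference of the 7 was 0.00. The activated T arrays are in set 3 but for 1, and all conventional T arrays are in set 1.

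In the comparisons by Foxp3 allele or Treg identity no channel gene was called. Between natural Treg and conventional T arrays limma called 0 of 91 at an adjusted p under 0.05 and 4 at an unadjusted p under 0.05, against 0.00822% and 2.65% of all genes. The smallest p was that of Kcnq5, an M-current subunit, which read 132, 98.6, 92.5 and 143 on natural Treg arrays and 76.7, 57.6 and 77.6 on conventional T arrays. The groups did not overlap and all 7 arrays lay in set 1; the log2 difference was 0.60 (SE 0.13, interval 0.33 to 0.87) with limma adjusted p = 0.269. Its other probe sets, with means of 20.2 and 15.4, differed by -0.01 and 0.10.

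Natural Treg against natural Foxp3-delta arrays gave 0 called channel genes and 9 at an unadjusted p under 0.05, against 0.0493% and 16.1% of all genes. Scaling to array medians gave 8, all lower, and the replicate number as a block called Kcnj11 (-0.78, adjusted p = 0.0347). The smallest p was that of Kcnj11 (Kir6.2, the pore of the ATP-sensitive channel), with 139, 140, 140 and 140 on natural Treg arrays and 166 and 332 on natural Foxp3-delta arrays. Its log2 difference of -0.69 (SE 0.21, limma adjusted p = 0.12) rested on the array labelled natural Foxp3-delta 2: without that array it was -0.23, and without the other it was -1.16 and was called (adjusted p = 0.0138), each time with 1 array left that is assumed to vary like the other groups. Across the series Kcnj11 was nearly flat, under 150 on 22 of 31 arrays, and over 180 on 3 arrays of 3 different groups: natural Foxp3-delta 2, induced Foxp3-delta 3 (328) and failed induced Treg 3 (197). Among the partners, Sptbn4 was higher on natural Treg arrays by 1.07 (SE 0.18, limma adjusted p = 0.0148). All 4 natural Treg arrays lay in set 1 and the natural Foxp3-delta arrays in sets 2 and 3. The differences of Kcnj11 and Sptbn4 could thus not be taken within a set. The actin ratio was 1.71 and 2.19 on the natural Foxp3-delta arrays, and its part was not tested.

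Induced Treg against activated T arrays gave 0 called channel genes and 5 at an unadjusted p under 0.05, against 0.0493% and 11.0% of all genes. Without scaling 51 were called, all higher, where the median of all genes moved by 0.46. Kcnk6, a tandem-pore channel, had the smallest p, with a log2 difference of 0.26 (SE 0.08, interval 0.08 to 0.43, limma adjusted p = 0.308) and groups that overlapped. Induced Treg against induced Foxp3-delta arrays also gave 0, with 5 at an unadjusted p under 0.05; of all genes 0% were called, and 2.81% had an unadjusted p under 0.05. Here Kcnmb4 came first, at 197, 215, 194, 229 and 254 on induced Treg arrays and 303, 296 and 265 on induced Foxp3-delta arrays. These did not overlap, with a log2 difference of -0.38 (SE 0.12, interval -0.62 to -0.14, limma adjusted p = 1.0), and -0.34 among the 3 and 3 arrays of set 2. Whether the allele difference itself differed between induced and natural cells was tested as an interaction, which called 0 of 91 and had 4 at an unadjusted p under 0.05, against 0% and 4.54% of all genes. Kcnmb4 was again first, at -0.48 (SE 0.18, limma adjusted p = 0.96), with natural Treg arrays at 258, 288, 276 and 290 and natural Foxp3-delta arrays at 253 and 262.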

How the data were processed

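Total RNA was labelled and hybridised to 1 Affymetrix array per sample, per the labels' protocols. The authors deposited linear probe set intensity values, as the file shows. Their summary of probes, background correction and scaling were not given in the sources used here. Of 45101 probe sets, 34958 had 1 symbol in the platform annotation, which can be old. Here the 31 arrays were quantile normalised and log2(intensity + 16) was fitted with limma 3.58.1 (lmFit, eBayes; R 4.3.3), with 1 mean per label group, Benjamini-Hochberg adjustment over 12170 genes and calls at an adjusted p under 0.05. Log2 differences are on that scale, which understates changes of dim genes. Groups and replicates follow the labels; the number of arrays limits precision. The script was tested on simulated data.

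Array sets came from Ward clustering of the log2 ratio of the control spikes cre and bioB, the median and the 99th percentile. Genes were named by rule: in each family up to 4 with the highest mean and the lowest, every gene called by the F test, called genes or else the smallest p in each comparison, and fixed lists. The members and lists were chosen with earlier results of these data known. Alternatives were no scaling, scaling to array medians, pseudocounts of 1 and 64, no filter, the mean of a gene's probe sets, array set or replicate number as a block, leaving out each array, and 2 other background levels chosen after seeing the data.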

Additional observations from a re-analysis of the deposited data

Results flagged for a closer look

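In groups of 4 or 5 arrays, each named channel gene was examined for 1 array whose gap to the nearest other array took most of the group's range (Dixon's rule at 95%). Of 228 such groups of values over 76 genes, 13 held such an array. Chance sets apart about 1 in 20 groups, so the number is near what chance gives, and no cause was tested.

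On arrays labelled natural Treg, array 1 stood apart in Cacna1h (152, the nearest at 114), Cacnb4 (919, the nearest at 750) and Kcnk2 (207, the nearest at 246). Array 3 stood apart in Kcnk6 (56.3, the nearest at 49.3) and in Kcnn4 (32.4, the nearest at 34.8), array 2 in Scn8a (2668, the nearest at 2474) and array 4 in Cacna1b (323, the nearest at 343). On arrays labelled induced Treg, array 5 stood apart in Cacna2d1 (738, the nearest at 618), Cacng4 (189, the nearest at 250) and Kcnv2 (9.44, the nearest at 7.72). Array 4 stood apart in Kcnj14 (119, the nearest at 148), Kcne1 (16.1, the nearest at 11.4) and Scn9a (15.6, the nearest at 19.5). Kcnv2 and Kcne1 lay near background, so their gaps are among dim values.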

How the results depend on the processing

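Counts of called channel genes depended most on scaling and array set. Over any label group the count of 8 was 40 on the deposited scale, 24 with array medians and 0 with array set as a block. For natural Treg minus natural Foxp3-delta, 0 became 8 (all lower) with array medians. For activated T minus conventional T, 2 became 9 (all lower) as deposited, 21 (20 higher) with array medians and 0 with the set block. For induced Treg minus activated T, 0 became 51 (all higher) as deposited. For activated natural Treg minus natural Treg, 5 became 58 (all lower) as deposited, 14 (11 higher) with array medians, 3 with the mean of probe sets and 0 with the set block. For induced Treg with IL-2 minus induced Treg, 2 became 0 as deposited, 5 with array medians and 0 with the set block. Without scaling the median of all genes itself moved by -0.36, 0.46, -0.53 and -0.31 in the activated T, induced Treg, activated natural Treg and IL-2 comparisons, and with array medians by 0.17 in the first, -0.14 in the last and -0.13 in natural Treg minus natural Foxp3-delta. Unscaled, the Kcnd1 difference in activated T minus conventional T was -0.04 (adjusted p = 0.888), where the median of all genes moved by -0.36.

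Same-numbered arrays of different groups did not deviate together in the median (114 pairs, median correlation 0.00247, from -0.295 to 0.404). Numbers were therefore used as names of arrays. A median over all groups cannot exclude pairing between particular groups. With the replicate number as a block, the F test called 6, natural Treg minus natural Foxp3-delta 1 (Kcnj11, -0.78, adjusted p = 0.0347) and the IL-2 comparison 0.

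Leaving out 1 array at a time gave 3 to 13 calls in the F test, 0 to 3 for natural Treg minus natural Foxp3-delta, 0 to 3 for activated T minus conventional T, 2 to 7 for activated natural Treg minus natural Treg and 0 to 3 for the IL-2 comparison. The F test called 3 without conventional T 2 or induced Treg with IL-2 1, 4 without conventional T 1 or induced Treg with IL-2 2, 5 without induced Foxp3-delta 1, activated natural Treg 2 or conventional T 3, and 13 without natural Foxp3-delta 1. Without natural Foxp3-delta 1 the natural comparison gave 3. The activated T comparison gave 0 without activated T 3, conventional T 1 or conventional T 3, and 1 without conventional T 2; the activated natural Treg comparison gave 2 without activated natural Treg 1. The IL-2 comparison gave 1 without induced Treg 3, 4 or 5 or the first array with IL-2, and 0 without the second. The cause of these changes was not tested. Pseudocounts of 1 and 64 and no filter kept every count within 1.5 times, and so did the 2 other background levels for the genes above background. Dim genes have the least signal over background, which limits them most.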
